A study of Mus musculus with 4 samples.

Results

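The CC chemokines are small secreted proteins with a pair of adjacent cysteines that attract leukocytes through G-protein-coupled receptors of the CCR family. Macrophages are both a main source of them and, through these receptors, a main target. In mice most of the genes lie close together in clusters on chromosome 11, and the members differ in the cells they call: Ccl2, Ccl7 and Ccl12 attract monocytes through Ccr2, Ccl8 is close to them in sequence, Ccl3, Ccl4 and Ccl5 attract monocytes and lymphocytes, Ccl6 and Ccl9 are made by myeloid cells of rodents, and Ccl24 attracts eosinophils through Ccr3.

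Described here are 10 CC chemokine genes, Ccl2, Ccl3, Ccl4, Ccl5, Ccl6, Ccl7, Ccl8, Ccl9, Ccl12 and Ccl24, of 31053 genes listed in single-cell RNA sequencing of bone marrow (BM) macrophages. They were chosen by symbol, and all 10 passed the filter on low counts. BM cells of male C57BL/6J mice, 4 to 6 weeks old, were grown into macrophages with M-CSF, and were then kept for 16 to 18 h with dying RM1 cells that carried the dye CFSE. RM1 is a prostate cancer line of C57BL/6J mice transformed by Ras and Myc, killed with UV light before use. Cells positive for F4/80, a surface protein of mouse macrophages, and for CFSE were sorted as efferocytic BM macrophages, and cells positive for F4/80 alone as non-efferocytic. The labels leave unsaid whether the latter shared their wells with RM1 cells. Each of 2 experiments gave 1 library per group, so 2 efferocytic libraries were set against 2 non-efferocytic libraries. Nothing in the labels says how many mice went into a library. The p-values rest on the spread between these libraries only, and edgeR draws each gene's spread towards that of other genes. The SE of a member can thus be smaller than its own 2 experiments would give. Counts are of unique molecular identifiers (UMIs), tags on the 3′ ends of single mRNA molecules, so levels of different genes can be compared without regard to length. Levels are given as CPM, UMIs of a gene per 1000000 UMIs in the cells of a library, and measure a share of the cells' RNA. Fewer cells that make a gene and less RNA of it per cell cannot be told apart in such a level.

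The cells kept were 8280 and 6695 in Experiment 1 and 13411 and 8408 in Experiment 2 (non-efferocytic, then efferocytic), with 101216659 to 155224183 UMIs per library and a median of 9600 to 17476 UMIs per cell. Efferocytic cells were the deeper ones in both experiments. As to the labelled cell type, 7 macrophage genes were all present and summed to 36240 and 31180 CPM in the non-efferocytic and 29060 and 21640 CPM in the efferocytic libraries, with 5 called lower and 1 higher. Most of the sum was Lyz2, which neutrophils express too (32090 and 27530 against 25870 and 18670 CPM). Adgre1, the gene of F4/80, stood at 525 and 501 against 382 and 350 CPM. The neutrophil list of 9 genes stood at 3046 and 3339 CPM in non-efferocytic against 952.8 and 705.0 CPM in efferocytic libraries, and all 9 were called lower. The fibroblast list of 6 genes stood at 145.3 and 120.8 against 46.47 and 52.03 CPM, and 4 were called lower. Lists for mast cells, eosinophils, dendritic cells, T or NK cells and B cells summed to at most 17.0 CPM in any library, and the 4 eosinophil genes to 9.03 CPM in the non-efferocytic library of Experiment 2 and to at most 0.0129 CPM in the others. The part of these cells in the differences below was not tested except where values without them are given. A list of 7 epithelial genes that RM1 cells could carry summed to at most 0.148 CPM in Experiment 1. In Experiment 2 it reached 9.40 CPM without efferocytosis but 8.03 CPM with it, and 0 of 5 tested were called. The paper lists RM1 as fibroblast-like, so epithelial genes may miss its RNA. Whether RNA of engulfed RM1 cells added to the level of any member, Ccl2, Ccl7 and Ccl4 included, was not tested. No doublet caller was run. The libraries of an experiment shared barcodes. In Experiment 2, 118 barcodes were kept as cells in both libraries, against 16.6 expected from independent draws, and in Experiment 1, 15 were, against 8.16 expected. Results that rest on such barcodes are given below with and without them.

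By position, 9 of the 10 genes fell into 2 clusters on chromosome 11 of GRCm38, the build that mm10 names. The first holds Ccl2 (chr11:82035571-82037453), Ccl7 (chr11:82045712-82047525), Ccl12 (chr11:82101845-82103400) and Ccl8 (chr11:82115185-82116799), all on the plus strand and all within 81.2 kb. The second begins 1409 kb further on, spans 139 kb and holds Ccl5 (chr11:83525778-83530518), Ccl9 (chr11:83572919-83578636), Ccl6 (chr11:83587882-83593087) and Ccl3 (chr11:83647844-83649355) on the minus strand and Ccl4 (chr11:83662584-83664683) on the plus strand. Ccl24 lies alone on chromosome 5 (chr5:135569937-135573049, minus strand). Ccl2 and Ccl6 each overlap 1 annotated gene of the opposite strand. No run of 31 bases in the transcripts of a member occurred in another member, and at most 3.75% of such runs (in Ccl9) occurred in any other gene, so few reads could be shared between members.

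The promoter table of RefSeq (GRCm38.p6) held 5 of the 10 members. The 100 bases before the start of each are printed to show how the start sites of neighbours differ, 5′ to 3′ on the gene's own strand, with capitals marking TATAAA or TGANTCA on either strand. They cover chr11:82101745-82101844 (Ccl12), chr11:82115085-82115184 (Ccl8), chr11:83578637-83578736 (Ccl9), chr11:83593088-83593187 (Ccl6) and chr11:83649379-83649478 (Ccl3).
Ccl12: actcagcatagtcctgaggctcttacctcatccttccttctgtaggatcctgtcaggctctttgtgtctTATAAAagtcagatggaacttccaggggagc
Ccl8: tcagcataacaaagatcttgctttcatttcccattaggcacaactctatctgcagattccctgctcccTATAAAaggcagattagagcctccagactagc
Ccl9: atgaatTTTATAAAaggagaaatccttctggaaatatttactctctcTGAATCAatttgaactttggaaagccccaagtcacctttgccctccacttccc
Ccl6: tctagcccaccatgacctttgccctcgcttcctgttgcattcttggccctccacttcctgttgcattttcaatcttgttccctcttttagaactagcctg
Ccl3: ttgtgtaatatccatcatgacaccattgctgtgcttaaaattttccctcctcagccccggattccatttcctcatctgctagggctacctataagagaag
Ccl12 and Ccl8, which are neighbours, each hold TATAAA at nearly the same distance, 31 and 32 bases before the start. In Ccl9 the nearest match begins 92 bases before the start, and Ccl6 and Ccl3 hold none in the 300 bases from 250 before to 50 after the start. For Ccl3 the RefSeq start lies upstream of the gene's start given above (chr11:83649355), while for the others the starts are the same. The printed window of Ccl3 is counted from the RefSeq start. Of 32851 promoters of that length in the table, 13.6% hold TATAAA. The letters TGANTCA, a loose form of the AP-1 site (TGACTCA or TGAGTCA), occurred in Ccl9 alone of the 5. They begin 53 bases before the start and have A at the centre (TGAATCA), so they are not the strict AP-1 letters. Of all promoters, 7.81% hold TGANTCA. Neither a core of the interferon-stimulated response element (3.44% of all promoters) nor a core of the NF-kB site (1.47%) occurred in any of the 5, on either strand. These are matches of letters in a short window and say nothing of binding.

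The levels of the 10 genes lay between 0.644 CPM (Ccl24) and 597 CPM (Ccl9). Ccl9 and Ccl6 led in every library and together held 71.9%, 70.9%, 79.4% and 69.3% of the members' UMIs (non-efferocytic then efferocytic library of Experiment 1, then of Experiment 2). Ccl3 and Ccl4 followed at 68.2 to 190 CPM, then Ccl2, Ccl7 and Ccl5 at 2.94 to 47.2 CPM, and Ccl24, Ccl8 and Ccl12 at 0.644 to 6.99 CPM. Summed over the 10 genes, the level was 1306 and 1285 CPM in the non-efferocytic libraries and 1032 and 1088 CPM in the efferocytic libraries. With edgeR and the experiment as a block, 3 of the 10 were called higher in efferocytic BM macrophages (Ccl2, Ccl7 and Ccl4), beside 19.9% of all 13869 genes tested, and 4 were called lower (Ccl24, Ccl5, Ccl8 and Ccl9), beside 19.0%. The remaining 3 (Ccl3, Ccl6 and Ccl12) did not pass the threshold of 0.05 on adjusted p. The 2 groups did not overlap in CPM for 8 of the 10 genes, beside 66.9% of all genes. The median log2 fold change was -0.19 over the members and -0.02 over all genes. With UMIs per cell in place of shares of RNA, where the median of all genes moves up to 0.60, 5 were called higher (Ccl2, Ccl4, Ccl6, Ccl7 and Ccl12) and 2 lower (Ccl24 and Ccl5), with log2 fold changes of 1.37 for Ccl2, 1.07 for Ccl7 and 1.30 for Ccl4. The calls depended on the 4 libraries, the block and the treatment of free RNA. The main fit, with the experiment as a block, itself has only 1 residual degree of freedom. Without the block 2 were called (Ccl24 and Ccl8), and with a library left out 3, 1, 0 and 0 were called (without the efferocytic library of Experiment 1, that of Experiment 2, and the non-efferocytic libraries in the same order), in fits with a single residual degree of freedom. With 10% of UMIs removed in the proportions of barcodes of 10 to 100 UMIs, 0 of 9 tested were called. Of those 9 only Ccl12 changed sign, to -0.70, a value that rests on Experiment 1 alone. The removal left no Ccl12 or Ccl24 counts in Experiment 2 and no Ccl8 counts in either efferocytic library. Ccl5 kept counts only in the non-efferocytic library of Experiment 2 and was not tested. The kept signs of Ccl24 and Ccl8 are thus partly set by the removal. The log2 fold changes of Ccl2 and Ccl7 were then 1.34 (SE 0.59) and 0.51 (SE 0.184). In the main fit they were 0.75 (SE 0.177) and 0.45 (SE 0.127). Barcodes of 10 to 100 UMIs held Ccl2 at 160 and 188 CPM in Experiment 2, above its level in cells. The size of the 1.34 is therefore partly set by the removal.

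**Figure D1:**
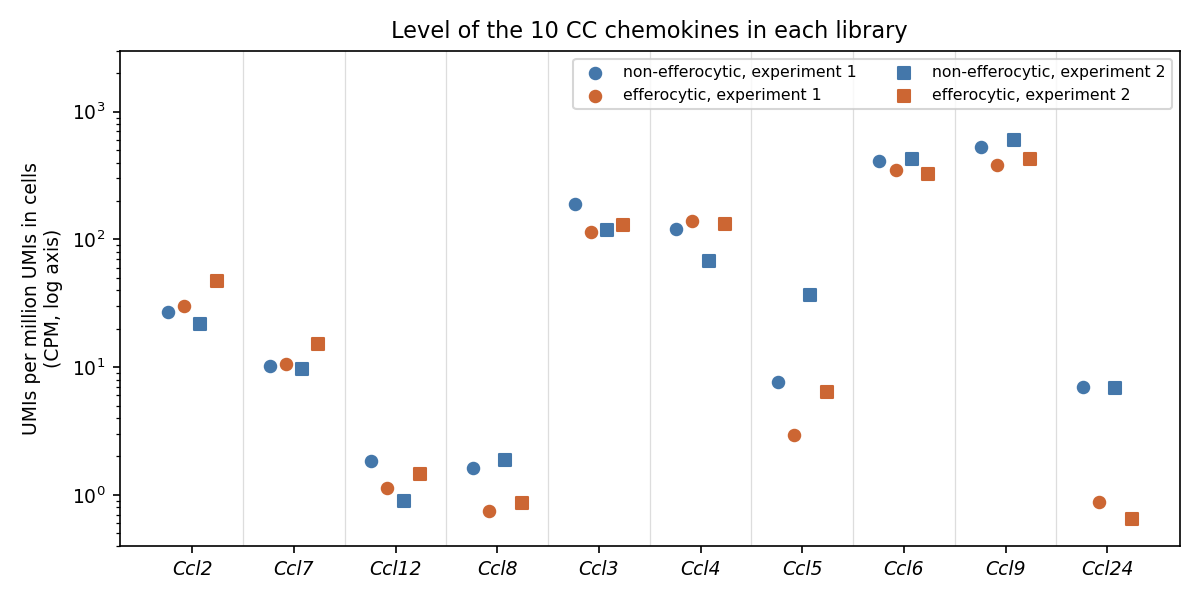
Level of each CC chemokine in the 4 libraries, as UMIs per 1000000 UMIs in cells on a log axis, with circles for Experiment 1, squares for Experiment 2, blue for non-efferocytic and orange for efferocytic BM macrophages. Ccl6 and Ccl9 lie above 300 CPM in every library, and Ccl24 drops from about 7 CPM in both non-efferocytic libraries to under 1 CPM in both efferocytic libraries.

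**Figure D2:**
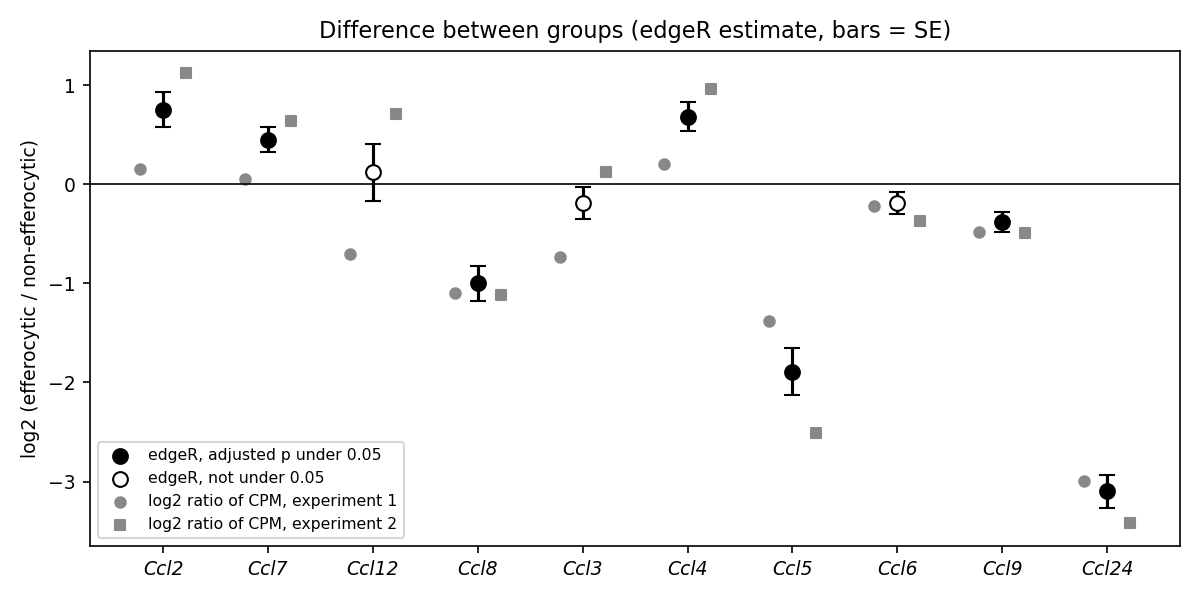
Difference between efferocytic and non-efferocytic BM macrophages for each CC chemokine on the log2 scale: edgeR estimate over both experiments with its SE (large circles, filled where adjusted p is under 0.05) and the plain ratio of CPM in each experiment (small grey symbols). The experiments give opposite signs for Ccl12 and Ccl3, and the difference of -3.10 for Ccl24 is the largest difference among the 10.

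Ccl24, the eosinophil attractant, showed the largest difference. It reached 6.99 and 6.90 CPM without efferocytosis (Experiments 1 and 2, an order kept for all pairs of values) but 0.880 and 0.644 CPM in efferocytic cells. The groups were far apart, and the spread within each was small (6.95 ± 0.0651 and 0.762 ± 0.167 CPM, SD, n = 2). The log2 fold change was -3.10 (SE 0.167, adjusted p = 3.52e-05, edgeR), or 8.56-fold lower. It was -2.48 with UMIs per cell and -4.22 with 10% of UMIs removed in the proportions of barcodes of 1 to 9 UMIs. Those barcodes held under 10 UMIs in every other library, so they may still be shared at low counts. That removal left no Ccl24 counts in the efferocytic library of Experiment 2, so the size of the -4.22 is partly set by the removal itself. In cells thinned to 5000 UMIs, Ccl24 was seen in 2.92% and 3.11% of non-efferocytic cells and in 0.455% and 0.354% of efferocytic cells, and at full depth in 5.41% and 5.35% against 1.49% and 1.12%. Thinning left out 1099, 544, 3404 and 505 cells. Cells with neutrophil markers, which should lack Ccl24, held it in 5.26% and 3.08% of 76 and 130 non-efferocytic cells at full depth and in 0 of 25 efferocytic cells of each experiment, which allows a share of up to 12.0%. Those cells had a median of 15302 to 19281 UMIs. In the non-efferocytic libraries they were deeper than the library (medians of 16165 and 15302 against 11146 and 9600 UMIs), so the shares are not at equal depth. Ccl24 stood at 3.63 and 1.88 CPM in them, against 7.10 and 7.02 CPM in cells without markers of another type. Too few neutrophil-marker cells were present to place the efferocytic shares against this background. At most 6 cells of a library held 10 or more Ccl24 UMIs, and without them the levels were 5.81 and 6.64 against 0.880 and 0.644 CPM.

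Ccr3, the receptor of Ccl24, was listed at low level, 2.17 and 1.67 CPM in non-efferocytic against 0.808 and 0.773 CPM in efferocytic libraries, with a log2 fold change of -1.16 (SE 0.176, adjusted p = 0.00198, edgeR). Both ligand and receptor were thus lower in both experiments.

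Ccl5 (RANTES), a T cell and monocyte attractant, stood at 7.64 and 36.6 CPM in the non-efferocytic libraries and at 2.94 and 6.44 CPM in the efferocytic libraries. The groups did not overlap but came close (7.64 against 6.44 CPM). Within each experiment the efferocytic library was lower, 2.60-fold in Experiment 1 and 5.69-fold in Experiment 2. The log2 fold change was -1.89 (SE 0.239, adjusted p = 0.000905, edgeR). With 1 library left out it was -0.60 or -2.86 (leaving out non-efferocytic cells of Experiment 2 or 1) and -2.77 or -1.71 (leaving out efferocytic cells of Experiment 2 or 1). It was -1.23 with UMIs per cell and -3.08 with removal by barcodes of 1 to 9 UMIs. Those barcodes held Ccl5 at 138 and 38.1 CPM in the non-efferocytic and 129 and 27.2 CPM in the efferocytic libraries. The removal left no Ccl5 counts in either library of Experiment 1, so the -3.08 rests on Experiment 2 alone. Few cells carried this gene. In thinned cells it was seen in 0.627% and 1.78% of non-efferocytic and 0.423% and 0.278% of efferocytic cells. At full depth it was seen in 0.966% and 2.81% of non-efferocytic and 0.762% and 0.559% of efferocytic cells, beside 1 of 76 and 3 of 130 non-efferocytic and 0 of 25 and 0 of 25 efferocytic cells with neutrophil markers (0 of 25 allows up to 12.0%), too few to set a background.

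The Ccl5 UMIs sat in a handful of cells. Cells with 10 or more Ccl5 UMIs numbered 15 and 55 in the non-efferocytic libraries and 8 and 17 in the efferocytic libraries, and they held 82.3%, 90.2%, 79.0% and 94.8% of the UMIs of the gene. A single cell of the non-efferocytic library of Experiment 2 held 1302 UMIs, 25.7% of that library's total. Single cells also held 39.5% in the other non-efferocytic library, and 45.2% and 35.6% in the efferocytic libraries. Without the highest cell of each library, the levels were 4.62 and 27.2 CPM against 1.61 and 4.14 CPM. Without every cell of 10 or more UMIs, they were 1.36 and 3.61 CPM against 0.617 and 0.336 CPM. That cut is on the raw count of Ccl5 itself and efferocytic cells were deeper, so it gives no direction.

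In Experiment 2 some of these cells were the same barcodes. Of the 55 and 17 cells with 10 or more Ccl5 UMIs, 9 in each library had a barcode that was a cell in the other library too, with 12 to 32 Ccl5 UMIs and totals of 1214 to 3234 UMIs in the non-efferocytic and 13 to 38 Ccl5 UMIs and totals of 1137 to 3028 UMIs in the efferocytic library. None were shared in Experiment 1. Cells with T or NK markers numbered 12 (non-efferocytic) and 10 (efferocytic) in Experiment 2 and 0 in both libraries of Experiment 1. Whether the shared barcodes rich in Ccl5 were among them was not tested. In cells without markers of another type, Ccl5 stood at 7.68 and 36.0 CPM against 2.88 and 6.10 CPM. With all shared barcodes left out, the Ccl5 levels of Experiment 2 were 35.3 and 5.14 CPM. The log2 fold change over both experiments was then -2.03 (adjusted p = 0.00279, edgeR), in a fit added after seeing the data.

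Summed over cells rich in Ccl5, interferon-response genes were high. The 14 genes of that list, such as Ifit1, Rsad2 and Cxcl10, summed to 4823 and 2920 CPM in the non-efferocytic cells with 10 or more Ccl5 UMIs against 449 and 261 CPM in the other cells, and to 2045 and 4556 CPM against 365 and 161 CPM in the efferocytic libraries. Only a part of these cells carried that signal: 6 of 15 and 4 of 55 non-efferocytic and 1 of 8 and 1 of 17 efferocytic cells had over 0.5% of their UMIs from the 14 genes. Summed over all cells rich in Ccl5, macrophage genes came near those of the other cells in the non-efferocytic libraries (33069 against 36248 and 34571 against 31165 CPM). In the efferocytic libraries they were lower (16257 against 29079 and 15782 against 21657 CPM). Of the cells rich in Ccl5, 15 of 15 and 44 of 55 non-efferocytic and 7 of 8 and 8 of 17 efferocytic had over 0.5% of their UMIs from macrophage genes. Acod1 and Saa3, acute-response genes of activated macrophages, and the interferon-induced AW112010 were among the 10 leading genes in both non-efferocytic libraries, while Cxcl10, Rsad2 and Ifit1 led in the efferocytic cells of Experiment 2. Collagen genes (Col1a1, Col1a2 and Col4a1) were among the leading ones of the 8 efferocytic cells of Experiment 1, of which 1 passed the limit for fibroblast markers. These genes were picked after their values were seen.

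Interferon-high cells, those in which the 14 genes held over 0.5% of the UMIs, numbered 118 and 90 in the non-efferocytic and 18 and 7 in the efferocytic libraries. This is a range of a continuous measure and not a cell type: 21 and 14 of the non-efferocytic and 3 and 1 of the efferocytic cells lay under 0.6%, and 45 and 28 and 12 and 4 further cells lay between 0.4% and 0.5%. Inside them Ccl5 stood at 317 and 227 CPM (non-efferocytic) and 81.6 and 373 CPM (efferocytic), above the library's own level in 4 of 4. Ccl4 (431 and 209 against 546 and 954 CPM), Ccl3 (283 and 212 against 195 and 842 CPM) and Ccl9 (560 and 685 against 502 and 486 CPM) were also above their library's level in 4 of 4. They held 53.8% and 4.03% of the Ccl5 UMIs of the non-efferocytic libraries, and 7.08% and 4.30% of those of the efferocytic libraries, so most Ccl5 of Experiment 2 came from cells under the limit. With these cells left out, Ccl5 stood at 3.57 and 35.4 CPM against 2.74 and 6.16 CPM. The log2 fold change was then -1.48 (adjusted p = 0.0171, edgeR), in a fit that was not planned. Whether the number of such cells accounts for the difference in Ccl5 was not tested.

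**Figure D3:**
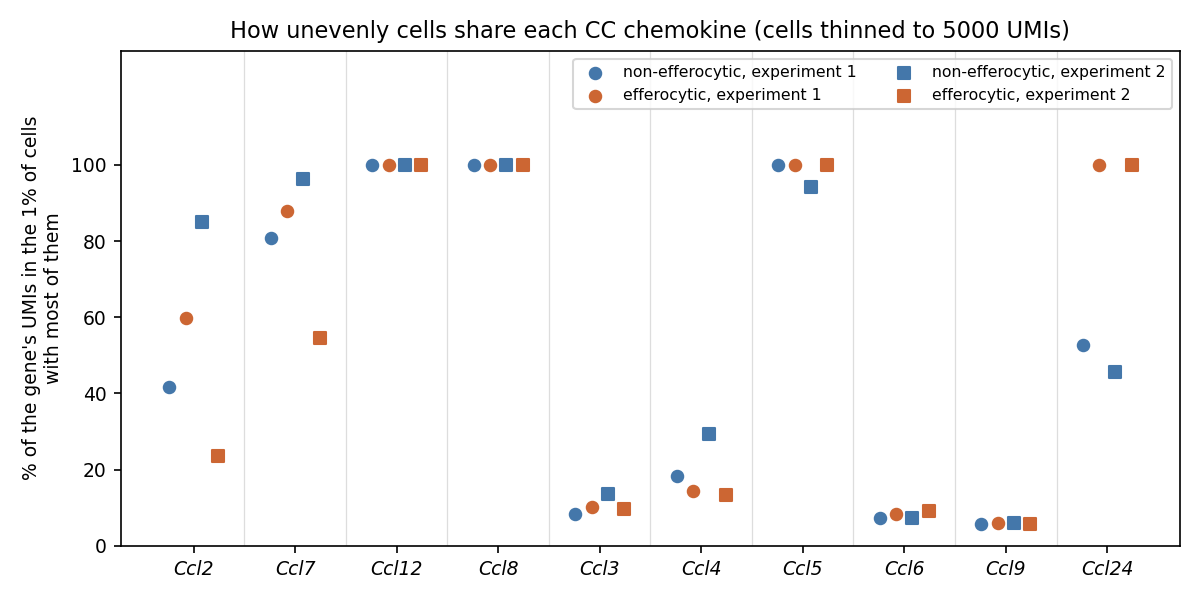
Share of each gene's UMIs that lay in the 1% of cells holding most of them, after thinning to 5000 UMIs, by library (colours and symbols as in the plot of levels). A gene seen in under 1% of cells reaches 100 by construction, as do Ccl12 and Ccl8 in all libraries, while for Ccl6 and Ccl9 the top 1% of cells held 5.71% to 8.98%.

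The genes of the first cluster moved in different directions. Ccl2 (MCP-1), the main ligand of Ccr2, was at 27.0 and 21.7 CPM among non-efferocytic cells and at 30.1 and 47.2 CPM among efferocytic cells. The groups did not overlap, but nearly all of the difference came from Experiment 2, with ratios of 1.11 and 2.18 in Experiments 1 and 2. The log2 fold change was 0.75 (SE 0.177, adjusted p = 0.0124, edgeR). The value was about the same with DESeq2 (0.75, SE 0.428, adjusted p = 0.197) and in cells thinned to 5000 UMIs (0.80, SE 0.327, adjusted p = 0.0932, edgeR), where it did not pass the threshold. Without the efferocytic library of Experiment 2 it was 0.46.

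Ccl7 (MCP-3), its neighbour, followed the same pattern at a lower level, at 10.3 and 9.74 CPM without and at 10.6 and 15.2 CPM with efferocytosis. Its ratios were 1.03 in Experiment 1 and 1.56 in Experiment 2, and its log2 fold change was 0.45 (SE 0.127, adjusted p = 0.0245, edgeR), or 0.24 without the efferocytic library of Experiment 2. The SD of the efferocytic libraries, 3.19 CPM (n = 2), exceeded the difference of the means.

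Both genes were strongest in rare cells with fibroblast markers. Cells in which collagens and other fibroblast genes held over 0.5% of the UMIs numbered 24 and 48 in the non-efferocytic and 12 and 23 in the efferocytic libraries, under 0.4% of cells. In them Ccl2 stood at 799 and 873 CPM (non-efferocytic) and 1172 and 630 CPM (efferocytic), and Ccl7 at 529 and 692 CPM and at 556 and 870 CPM. They held 31.4% and 29.0% of all Ccl2 UMIs and 54.7% and 51.2% of all Ccl7 UMIs of the non-efferocytic libraries, against 13.1% and 5.20% and against 17.5% and 22.4% in the efferocytic libraries. These cells had a median of 21115 to 45200 UMIs, more than their libraries, and their macrophage genes summed to 873 to 6127 CPM, far below the libraries' levels. The F4/80 gate of the sort should remove cells of this kind, and doublets were not removed.

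Once cells over the 0.5% limit for markers of any other type were left out, the difference between the groups was larger. The efferocytic library was then higher in both experiments. Ccl2 then stood at 18.5 and 15.7 CPM in non-efferocytic against 26.3 and 45.1 CPM in efferocytic cells, and Ccl7 at 4.59 and 4.82 against 8.84 and 11.9 CPM. The log2 fold changes were 1.10 for Ccl2 and 1.20 for Ccl7. Of cells with 10 or more Ccl2 UMIs, only a part passed the fibroblast limit. These were 8 of 19 and 20 of 41 without efferocytosis, but 4 of 64 and 11 of 160 with it. Summed over all such Ccl2-rich cells, fibroblast genes exceeded those of the other cells in each library. In Experiments 1 and 2 the efferocytic values were 1082 against 27.6 and 1100 against 20.2 CPM. Whether those under the limit carried such genes, and so shaped these fold changes, was not tested. Few cells held much of both genes. In the efferocytic library of Experiment 1, 64 cells with 10 or more Ccl2 UMIs held 67.3% of the Ccl2 UMIs, and 20 such cells for Ccl7 held 74.3%. In the non-efferocytic library of Experiment 2, 41 cells with 10 or more Ccl2 UMIs held 75.7% of them, and the highest, with 657 UMIs, held 21.9%. Without the highest cell of each library, Ccl2 stood at 24.35 and 16.9 CPM in non-efferocytic against 27.2 and 46.6 CPM in efferocytic libraries. Over all cells but those with 10 or more UMIs of the gene, Ccl2 stood at 15.7 and 5.31 CPM against 10.0 and 30.8 CPM. Ccl7 then stood at 3.32 and 2.75 against 2.75 and 8.61 CPM. The cut is on the gene's own raw count and efferocytic cells were deeper, so no direction is read from these levels. The share of thinned cells with a Ccl2 UMI did not follow the library levels in Experiment 1, at 6.21% of non-efferocytic and 4.21% of efferocytic cells. In Experiment 2 it was 2.03% and 12.9%. No order is read from these shares. Ccl7 was seen in 1.45% and 1.11% of non-efferocytic and in 1.35% and 3.88% of efferocytic thinned cells.

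**Figure D4:**
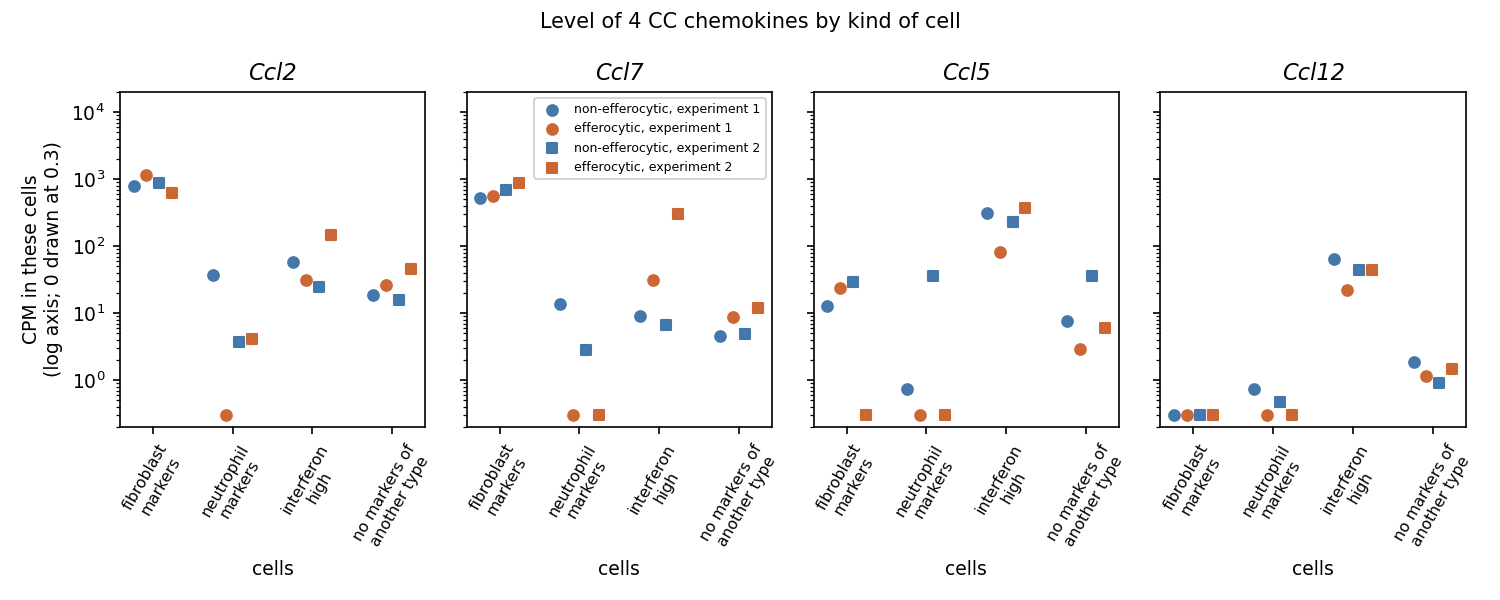
Level of Ccl2, Ccl7, Ccl5 and Ccl12 within 4 kinds of cells of each library, as CPM on a log axis with values of 0 drawn at 0.3. Interferon-high cells may also be among the cells without markers of another type. Ccl2 and Ccl7 are highest in cells with fibroblast markers in every library, and Ccl5 and Ccl12 in interferon-high cells.

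Ccl8 (MCP-2), a low gene, fell in both experiments. Its level was 1.61 and 1.89 CPM (163 and 261 UMIs) in the non-efferocytic and 0.752 and 0.870 CPM (94 and 135 UMIs) in the efferocytic libraries, 2.14-fold and 2.17-fold lower. The log2 fold change was -1.0 (SE 0.174, adjusted p = 0.00341, edgeR). Single cells held 39.3% and 21.1% of its UMIs in the non-efferocytic libraries and 18.1% and 12.6% in the efferocytic libraries, and without them the levels were 0.978 and 1.49 against 0.616 and 0.760 CPM. The share of thinned cells with a UMI did not differ in the same way, 0.279% and 0.420% against 0.358% and 0.380%. The value was smaller and not called in thinned cells (-0.41, adjusted p = 0.229, edgeR) and with UMIs per cell (-0.38, adjusted p = 0.265, edgeR).

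Ccl12 (MCP-5), the other low gene of the cluster, went in opposite directions in the 2 experiments. It stood at 1.83 CPM in non-efferocytic and 1.13 CPM in efferocytic cells of Experiment 1, and at 0.889 and 1.46 CPM in Experiment 2. The groups overlapped, and the log2 fold change of 0.12 (SE 0.291, adjusted p = 0.775, edgeR) was not called. In interferon-high cells Ccl12 stood at 64.7 and 44.5 CPM (non-efferocytic) and at 21.96 and 43.4 CPM (efferocytic), above the library's level in 4 of 4, and these cells held 45.9% and 32.5% of its UMIs in non-efferocytic against 4.96% and 2.21% in efferocytic libraries. With these cells left out, it stood at 1.00 and 0.604 CPM against 1.07 and 1.42 CPM. Its log2 fold change was then 0.78 (adjusted p = 0.0393, edgeR), with nearly all of the difference in Experiment 2. That fit was not among the planned ones.

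Ccl3 (MIP-1 alpha) and Ccl4 (MIP-1 beta), attractants of monocytes and T cells that lie next to each other, differed in how they changed. Ccl4 stood at 122 and 68.2 CPM in non-efferocytic and at 140 and 132 CPM in efferocytic libraries. The efferocytic libraries were the higher ones, by 1.15-fold in Experiment 1 and 1.94-fold in Experiment 2, and the log2 fold change was 0.68 (SE 0.147, adjusted p = 0.00837, edgeR). It was 0.28 without the non-efferocytic library of Experiment 2 and 1.11 without that of Experiment 1. Ccl3 stood at 190 and 119 CPM against 115 and 130 CPM. Its groups overlapped and its experiments went opposite ways (log2 ratios of -0.73 and 0.12), and its log2 fold change of -0.19 (SE 0.162, adjusted p = 0.368, edgeR) was not called.

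The ratio of Ccl4 to Ccl3 UMIs needs no scaling between libraries. It was 0.640 (95% exact binomial interval 0.626 to 0.655) and 0.571 (0.556 to 0.585) in the non-efferocytic libraries, and 1.22 (1.19 to 1.24) and 1.02 (0.997 to 1.04) in the efferocytic libraries. The intervals cover counting error only. The ratio was thus higher in the efferocytic library of both experiments, and the groups did not overlap. Seen by cells, Ccl4 was found in 27.8% and 17.1% of non-efferocytic and 34.4% and 34.4% of efferocytic thinned cells, and Ccl3 in 48.5% and 33.8% against 35.2% and 39.1%. At full depth Ccl4 was found in 39.1% and 24.1% against 56.7% and 57.0% of cells. Among cells with neutrophil markers, 21.1% and 12.3% against 12.0% and 8.00% held a Ccl4 UMI at full depth, below the library's share in each. For Ccl3 these cells were no clear background, with 64.5% and 30% against 28.0% and 32.0%, where the libraries stood at 63.7% and 44.2% against 61.6% and 67.1%.

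Ccl9 (MIP-1 gamma) and Ccl6, the most abundant members, were both lower in every efferocytic library. Ccl9 stood at 531 and 597 CPM in non-efferocytic and at 380 and 427 CPM in efferocytic libraries, 1.40-fold lower in both experiments. Its log2 fold change was -0.38 (SE 0.103, adjusted p = 0.0227, edgeR). Ccl6 stood at 408 and 422 CPM against 351 and 327 CPM. Although its groups did not overlap, its log2 fold change of -0.19 (SE 0.107, adjusted p = 0.199, edgeR) did not pass the threshold, and with library totals in place of TMM factors it did (-0.29, adjusted p = 0.0187).

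A UMI of either gene was found in most cells. In thinned cells Ccl9 was found in 79.2% and 83.6% of non-efferocytic and 70.6% and 74.6% of efferocytic cells, and Ccl6 in 69.8% and 70.2% against 65.0% and 61.0%. At full depth the efferocytic shares of Ccl6 were the higher ones (81.5% and 74.1% against 83.6% and 81.9%). Efferocytic cells were also the deeper ones, and the cause of this turn was not tested. At full depth Ccl9 was found in 48.7% and 49.2% of non-efferocytic and 36.0% and 40.0% of efferocytic cells with neutrophil markers, and Ccl6 in 51.3% and 40.8% against 32.0% and 24%. These cells held less of both, with Ccl9 at 136 and 146 CPM (non-efferocytic) and 92.3 and 53.0 CPM (efferocytic), and Ccl6 at 104 and 113 CPM and at 55.4 and 79.4 CPM. With UMIs per cell in place of TMM, the log2 fold change was 0.24 for Ccl9 (adjusted p = 0.19, edgeR) and 0.43 for Ccl6 (adjusted p = 0.0266). That scaling moves the median of all genes from -0.02 to 0.60, and both genes lay below the median in either fit. The change of sign is thus not particular to them. Depth per cell differed between the groups, and its part in this change was not tested.

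Across single cells, 3 pairs of neighbouring genes stood above the rest. Pearson's r of log2(UMI + 1) across the 6151 to 10007 thinned cells of a library, as the mean of the 4 libraries, was 0.443 for Ccl2 and Ccl7 (0.339 to 0.597), 0.238 for Ccl3 and Ccl4 (0.211 to 0.256) and 0.187 for Ccl6 and Ccl9 (0.133 to 0.237). Every other pair of the 45 stayed at or under 0.107, other neighbours included, with 0.09 for Ccl7 and Ccl12, 0.04 for Ccl12 and Ccl8 and 0.01 for Ccl5 and Ccl9, and the lowest was -0.03 for Ccl3 and Ccl9. The cells of a library share its sequencing and free RNA, and weak values in sparse counts carry no weight. With cells over the 0.5% limit for markers of another type left out, r of Ccl2 and Ccl7 was 0.371.

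**Figure D5:**
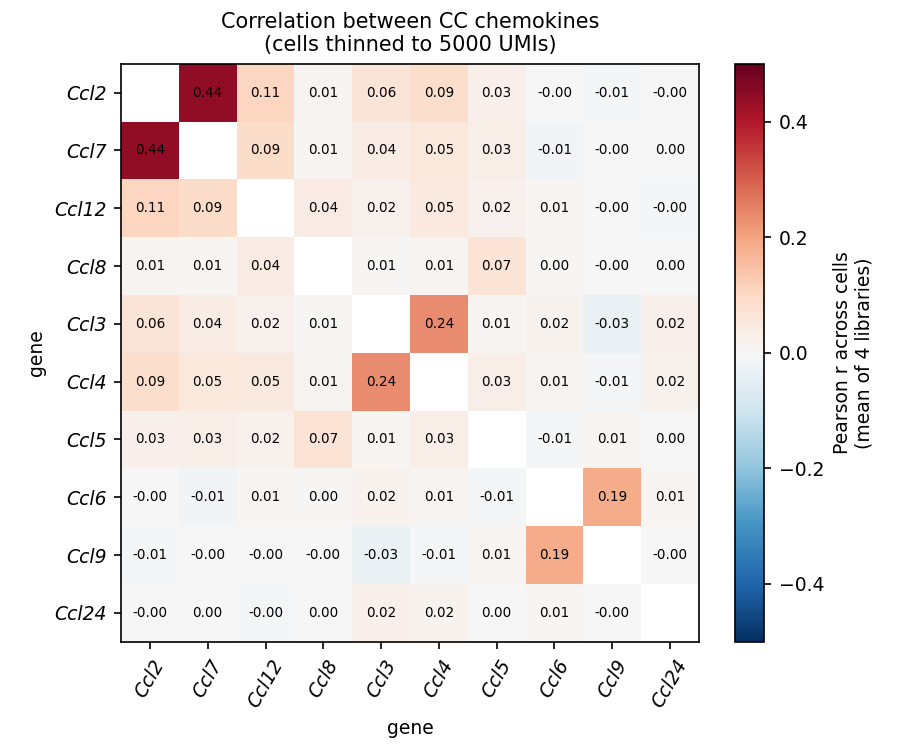
Pearson's r across single cells for every pair of the 10 genes, as the mean of the 4 libraries after thinning each cell to 5000 UMIs (colour scale from -0.5 to 0.5). The 3 highest values are the neighbouring pairs Ccl2 and Ccl7, Ccl3 and Ccl4, and Ccl6 and Ccl9.

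Of 9476 genes seen in at least 1% of thinned cells in every library, those with a mean r of at least 0.2 were few. For Ccl7, Ccl2 came first and Acta2, smooth muscle actin, second, with a mean r of 0.246 (0.144 to 0.308). For Ccl9 it was Crip1, a LIM protein, with 0.222, and for Ccl3 and Ccl4 it was each other. Ccl6 had none (Ccl9 was highest), and Ccl5, Ccl8, Ccl12 and Ccl24 were seen in too few cells to be ranked.

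Most of the other CC chemokine genes were at or near 0 UMIs in these cells. Of 14 symbols looked for, 3 passed the filter on low counts. Ccl27a, a skin T cell attractant, stood at 12.5 and 11.2 CPM in non-efferocytic against 8.10 and 5.69 CPM in efferocytic libraries, with a log2 fold change of -0.69 (SE 0.123, adjusted p = 0.00377, edgeR). Sequence that Ccl27a shares with other genes was not measured, and Ccl27b, listed apart, had 0 UMIs. Ccl25 (log2 fold change 0.21, adjusted p = 0.197) and Ccl20 (-1.55, adjusted p = 0.171) were not called by edgeR. Ccl11, which lies between Ccl7 and Ccl12, had 0, 0, 3 and 3 UMIs in the libraries, and Rpl9-ps1 near Ccl3 had 4, 1, 2 and 0.

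Of 15 CC chemokine receptor genes, 8 were tested, 1 was called higher and 4 lower, beside 19.9% and 19.0% of all genes, with a median log2 fold change of -0.65 beside -0.02 over all genes. Ccr2, the receptor of Ccl2, Ccl7 and Ccl12 on inflammatory monocytes, stood at 22.1 and 36.5 CPM in non-efferocytic against 4.95 and 4.07 CPM in efferocytic libraries (log2 fold change -2.56, SE 0.221, adjusted p = 0.000174, edgeR). Ccr1, which binds Ccl3, Ccl5, Ccl6, Ccl7 and Ccl9, was the one called higher, with 8.19 and 9.80 against 16.3 and 25.6 CPM (1.30, SE 0.101, adjusted p = 0.00013, edgeR). With UMIs per cell 1 was called higher and 2 lower, with a median of -0.03. Without efferocytic cells of Experiment 2, 1 was higher and 2 lower, and without either non-efferocytic library 0 were called.

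The NF-kB pathway acts upstream of many chemokines. Of 17 genes of the pathway and its targets, 13 were called lower and 1 higher, beside 19.0% and 19.9% of all genes, a background that holds for the next 2 lists too, with a median of -0.80. The largest among them were Il1b (-3.53, adjusted p = 3.83e-05, edgeR), the neutrophil attractants Cxcl1 (-2.84, adjusted p = 0.00567) and Cxcl2 (-2.40, adjusted p = 0.00218), and Ptgs2 (-2.23, adjusted p = 0.00149), which makes prostaglandins, while Il1a was higher (1.98, adjusted p = 0.00106). Without the block 9 of the list were called lower, without efferocytic cells of Experiment 2 it was 7, and without either non-efferocytic library 0 were called. Cxcl1 and Cxcl2 differed mainly in Experiment 1, where Cxcl1 stood at 4.72 against 0.280 CPM and Cxcl2 at 87.2 against 8.01 CPM. In Experiment 2 they stood at 0.347 against 0.168 CPM and at 8.39 against 3.099 CPM. With UMIs per cell 5 of the list were called lower and 2 higher. Neutrophils also make Il1b and Cxcl2, and their markers were lower in efferocytic libraries. With cells carrying markers of another type left out, 13 of the 17 were called lower and 1 higher. Of 14 interferon-response genes, 8 were called lower and 1 higher, with a median of -0.70. This median was -0.21 (6 lower, 1 higher) with interferon-high cells left out. It was -0.04 without efferocytic cells of Experiment 2 and -1.43 without those of Experiment 1. Without non-efferocytic cells of Experiment 1 it was -0.03, and without those of Experiment 2 it was -0.85. Without the block 2 were called lower. Cxcl10, an interferon-induced T cell attractant, fell by 3.56 on the log2 scale (adjusted p = 9.52e-05, edgeR), while Irf7 (0.08) was not called. Of 8 tested genes of alternative activation, in which Ccl24 is also induced, 6 were called lower and 1 higher, with a median of -0.92. Without the block 3 were called lower and 0 higher, and without either non-efferocytic library 0 were called. Mgl2 (-2.38, adjusted p = 0.000142, edgeR) and Chil3 (-1.61, adjusted p = 8.68e-05) fell, Arg1 rose (3.03, adjusted p = 0.0144) with most of its UMIs in Experiment 1 (0.563 against 17.0 CPM, and 0.998 against 2.08 CPM in Experiment 2), and Mrc1 (-0.11) was not called. With UMIs per cell, 3 interferon-response genes were called lower and 2 higher, and 3 genes of alternative activation lower and 2 higher. With 10% of UMIs removed in the proportions of barcodes of 10 to 100 UMIs, 2 of 15 tested NF-kB genes were called lower. None of 13 interferon-response genes and none of 6 receptors were called, and of 7 genes of alternative activation 2 were lower and 1 higher. The medians were then -0.89 (NF-kB), -2.29 (interferon response), -1.11 (receptors) and -2.81 (alternative activation), each larger in size than in the main fit. Removal by these barcodes can take a gene to 0 in a library, so the size of these medians is not read. Those barcodes are shared between libraries. Removal by barcodes of 1 to 9 UMIs, which may also be shared at low counts, left 13 NF-kB genes lower and 1 higher. Of interferon-response genes 8 were then lower and none higher, and of 5 tested receptors 4 were lower and 1 higher. Of genes of alternative activation, 6 were lower and 1 higher.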

How the data were processed

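Reads were made into UMI counts per gene and barcode by the authors with Cell Ranger on mm10, and the unfiltered matrices were deposited (Cell Ranger 3.0.0 in the headers of Experiment 1, 3.1.0 in those of Experiment 2). A barcode was taken as a cell from 200 genes and 1000 UMIs upwards if mitochondrial genes held no more than 10% of its UMIs. Cells are not replicates, so their counts were added up per library. The test was that of edgeR 4.0.16 (quasi-likelihood, with TMM factors, filterByExpr, experiment as a block, Benjamini-Hochberg over 13869 genes, threshold 0.05). R 4.3.3, Python 3.11.15 and DESeq2 1.42.0 were also used. The script recovered known changes of 2-fold and 4-fold in simulated data, alike in both experiments and with a single spread for all genes. Smaller changes, or changes unlike between experiments, were not simulated. Pairing came from the labelled experiment, and the deviations of same-experiment libraries correlated with r = 0.616 over 7051 genes. Cells over 0.5% of UMIs from a marker list of another type were so classed. For shares, cells were thinned to 5000 UMIs and shallower ones left out. Intervals and limits cover counting error only. Named genes were the 10 members, and of each list 2 to 4 called genes with the largest changes, and genes correlated with a member at a mean r of at least 0.2. Il1a, Irf7, Mrc1, Ccl25, Ccl20, Ccl11 and Rpl9-ps1 were named after their values were seen. The members and lists were chosen with earlier results of these data known. Some list genes are not reported here.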

Additional observations from a re-analysis of the deposited data

Results flagged for a closer look

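The experiments gave opposite signs for 2 members, a difference that was not tested. The log2 ratio of efferocytic to non-efferocytic CPM was -0.70 in Experiment 1 and 0.71 in Experiment 2 for Ccl12, and -0.73 and 0.12 for Ccl3.

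Barcodes with 10 to 100 UMIs, which were not kept as cells, held more of some members than the cells did. Ccl5 stood at 196 CPM in those of the non-efferocytic library of Experiment 1, and at 309 and 332 CPM in those of the efferocytic libraries of Experiments 1 and 2; it was 309 CPM in those of the fourth library, the non-efferocytic one of Experiment 2. Ccl24 stood at 223 and 254 CPM in the non-efferocytic and efferocytic barcodes of Experiment 2, and Ccl12 at 83.0 and 84.0 CPM. In the same libraries Ccl4 stood at 585 and 562 CPM, 8.58 and 4.25 times its level in cells, and Ccl2 at 160 and 188 CPM, 7.40 and 3.98 times its level in cells. Ccl8 stood at 15.3 and 15.5 CPM in the efferocytic barcodes of the 2 experiments. Many of these barcodes were also found, with 10 or more UMIs, in the other library of the same experiment: 37.4% to 72.7% of them, where independent draws would give 1057 to 1663 of 48905 to 82690 barcodes. In Experiment 2, 9 of the non-efferocytic and 9 of the efferocytic cells with 10 or more Ccl5 UMIs had a barcode that was a cell in the other library.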

How the results depend on the processing

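Of the 10 members 7 were called, and 5 to 8 under the other settings except 3 kinds. Removing 10% of UMIs in the proportions of barcodes with 10 to 100 UMIs left 0 of 9 tested called and 317 of all genes (main 5397). Of those 9 only Ccl12 changed sign, and Ccl2 and Ccl7 stood at 1.34 and 0.51, beside 0.75 and 0.45 in the main fit. Removal by these barcodes left 0 counts of Ccl12 and Ccl24 in Experiment 2 and of Ccl8 in both efferocytic libraries. Signs of these members under it carry little weight. Those barcodes are shared between libraries. The same removal by barcodes of 1 to 9 UMIs, chosen after seeing the data, left 7, with no Ccl5 counts left in Experiment 1. These low barcodes held under 10 UMIs in every other library and may be shared too. Fits without interferon-high cells or without shared barcodes were not planned either. Without the replicate block, which sets aside the pairing by experiment, 2 members and 2358 genes were called. Leaving out a library gave 0 to 3 members and 0 to 2933 genes, with 3 libraries and no block, the lone sample being assumed to vary like the other group. DESeq2 called 3404 genes (6 members), and a minimum mean of 10 CPM 3026, with fewer genes tested. By UMIs per cell, 6921 genes were higher and 586 lower, and by library totals 1847 and 3700, against 2761 and 2636.

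Values that changed sign were few. Ccl12 went to -0.70 with the removal by 10 to 100-UMI barcodes, from Experiment 1 alone, and to -0.05 in thinned cells. It ranged from -0.39 to 0.65 with a library left out. Ccl3 ranged from -0.52 to 0.15 in that way. With UMIs per cell, where the median of all genes moves to 0.60, Ccl3, Ccl6 and Ccl9 went to 0.42, 0.43 and 0.24. Differences in the percentage of cells with a UMI turned to -0.0458 (Ccl12) and -0.0755 (Ccl8) at 2000 UMIs, and to 10.4, 4.97 and 2.25 points (Ccl3, Ccl6, Ccl9) at full depth. The causes were not tested. Ccl8 and Ccl12, with 94 to 261 UMIs per library, are limited by depth.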
